A study of Mus musculus with 19 samples.

Results

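The genes described are the nuclear subunits and named assembly factors of respiratory complex I, the NADH:ubiquinone oxidoreductase of the inner mitochondrial membrane. They were taken as every gene on the array whose name starts with Ndufa, Ndufb, Ndufc, Ndufs, Ndufv or Ndufaf, with 1 probe per gene, the one of highest mean signal over the 19 arrays. This gave 41 genes, measured by 62 probes, of 27793 genes on the array. C2C12 cells are a mouse myoblast line, and both C2C12 groups were stable lines selected with hygromycin B and geneticin, each at 500 µg/ml, and harvested as myoblasts in growth medium 48 h after seeding. The WT group (6 samples) carried empty plasmids, and the HDAC4&5 group (6 samples) carried plasmids for human HDAC4 and human HDAC5, a pair of class IIa histone deacetylases. The sources used here do not say whether each line was a clone or a pool. The soleus muscles came from male C57BL6J mice at 12 weeks of age after a fast of 5 h, either heterozygous littermates (Con, db -/+, 3 samples) or obese, diabetic db mice (db +/+ in the labels, 4 samples), which lack working leptin receptor signalling. For the C2C12 and db groups the study's methods name fewer biological replicates than the labels hold, so p-values in the C2C12 lines may measure only the spread between samples of a shared source.

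Complex I passes electrons from NADH through a flavin and a chain of iron-sulfur clusters to ubiquinone and pumps protons across the inner membrane. Its matrix arm carries the redox centres, its membrane arm carries the proton channels, and the core channel subunits are encoded in mitochondrial DNA. Around the core lie accessory subunits, and assembly factors that are not part of the finished enzyme help to join its modules. In oxidative muscle such as soleus, which is rich in mitochondria, the complex feeds most of the electron flow of the respiratory chain.

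By role, 7 of the genes encode nuclear core subunits of the matrix arm, 9 encode accessory subunits of the matrix arm, 19 encode accessory subunits of the membrane arm, and 4 encode NDUFAF assembly factors. The remaining pair are Ndufab1, the mitochondrial acyl carrier protein, and Ndufa4, first described as a complex I subunit and since assigned to complex IV. Ndufb1, Ndufaf5, Ndufaf6, Ndufaf7 and mt-Nd4 were on the array under other names and are described with the related lists.

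Values are log2 of the deposited processed signal relative to the 75th percentile of the same array, so a value of 0 is the level of that percentile. Levels of different genes are levels of different probes and are not compared. Every spot of the 41 genes that was not an outlier spot was well above background, the scanner software's detection mark, so all 41 were tested in each comparison. The software marked 12 of 246 spots as outliers in WT, 16 of 246 in HDAC4&5, 5 of 123 in Con and 14 of 164 in db, and 10 of the latter lay on db 1. These spots were left out.

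The probes of complex I genes were bright, and saturation set a ceiling on many of them. Ndufa13, Ndufb9 and Ndufs5 were saturated on every WT and every HDAC4&5 array, and Ndufb8 was saturated on every WT array. A further 15 genes were saturated on some WT arrays against 3 on some HDAC4&5 arrays. WT 3 held 19 saturated genes, whereas the other WT arrays held 4 to 7 and the HDAC4&5 arrays held 3 to 5. In soleus, Con 3, db 3 and db 4, which shared the second of the 2 soleus slides, held 30, 32 and 30 saturated genes, against 4 to 6 on the 4 arrays of the first slide. A saturated spot can read too low but not too high.

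**Figure D1:**
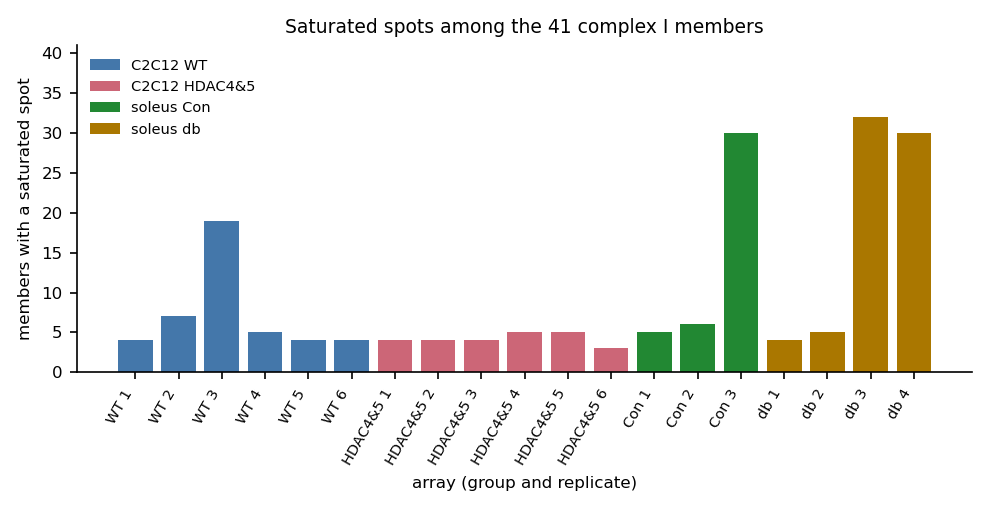
Number of the 41 complex I genes with a saturated spot (vertical axis) on each of the 19 arrays (horizontal axis), by group. WT 3 and the 3 arrays of the second soleus slide stand above the rest, with 19, 30, 32 and 30 saturated genes.

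To ask what HDAC4 and HDAC5 overexpression did to complex I transcripts, the HDAC4&5 and WT lines were compared. Of the 41 genes, 13 were lower and 8 were higher in the HDAC4&5 cells (limma, Benjamini-Hochberg adjusted p under 0.05 over all genes). Those called higher include Ndufs1, which had a single HDAC4&5 value. Its spread was estimated from its WT values and, as limma does, from the spread of all genes. Most of the transcriptome differed between these lines, since 69.3% of the 14136 genes tested passed the same threshold, 36.5% as higher and 32.8% as lower. With saturated spots kept, the share of complex I genes called, 21 of 41, was below the share of all genes. The 20 genes not called include Ndufa13, Ndufb9 and Ndufs5, saturated on every array of both groups, where a difference cannot be read. The part of saturation in this share was not tested. The median log2 difference of the 41 genes was -0.01, against 0.051 for all genes tested. The largest differences were falls, of Ndufaf3 (1.90-fold lower), Ndufc2 (1.74-fold lower) and Ndufa11 (1.53-fold lower), and the largest rises were those of Ndufaf4 and Ndufa1 (both 1.35-fold). The groups did not overlap for 11 of the 41 genes, 4 of them above WT (Ndufs1 among them) and 7 below it, where 54.6% of all genes tested did not overlap.

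The balance of rises and falls depended on the scaling and on the saturated spots. With quantile normalisation, 4 genes were higher and 18 lower, with the normexp background correction 1 was higher and 13 lower, and with the deposited matrix of processed values none was higher and 18 of 37 were lower. The median of all genes tested moved from 0.051 to 0.027, 0.125 and -0.096 under these alternatives, and that of the complex I genes moved from -0.01 to -0.13, -0.13 and -0.31. Leaving saturated spots out gave 7 higher and 17 lower of 37 genes, with a median of -0.14. The 4 genes not tested in that setting were Ndufa13, Ndufb8, Ndufb9 and Ndufs5. Under all 4 scalings, 12 of the 13 falls were called as falls, the exception being Ndufa3, whereas of the 8 rises Ndufa1, Ndufaf4, Ndufb3 and Ndufs4 were called with quantile normalisation, Ndufaf4 alone also with normexp, and none also with the deposited matrix. Within each of the 3 C2C12 slides, all 13 falls were negative differences, and all 8 rises were positive on each slide that had a value, with values on all 3 slides for 6 of them.

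**Figure D2:**
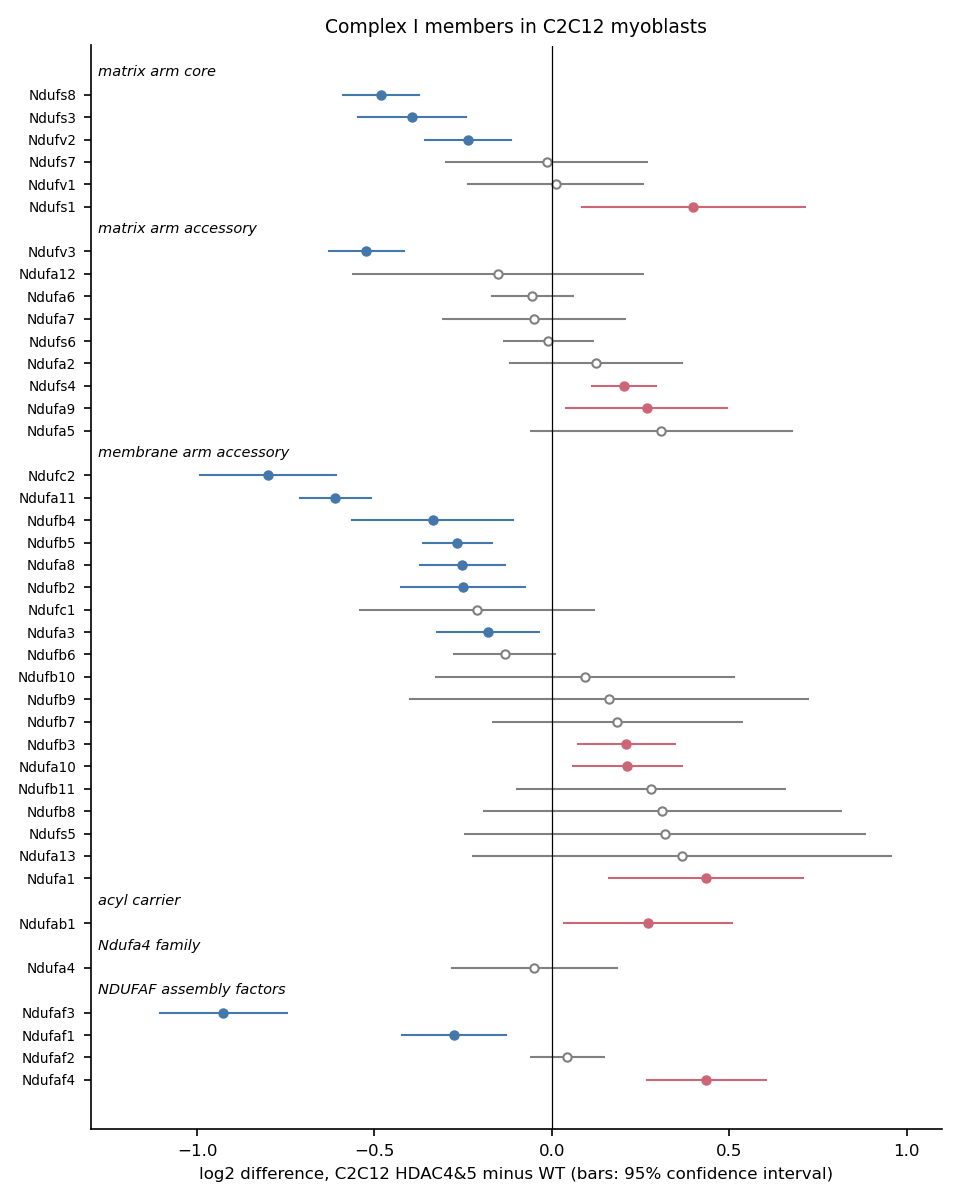
Log2 difference of HDAC4&5 minus WT (horizontal axis, bars are 95% confidence intervals) for 40 of the 41 genes, grouped by role, with called genes filled. Ndufaf3, Ndufc2 and Ndufa11 lie furthest below 0, and Ndufaf4 and Ndufa1 lie furthest above it.

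The C2C12 lines also differed in muscle identity. All 4 myogenic markers tested were lower in HDAC4&5, and the summed level of the 5 on the array, in multiples of the 75th percentile, was 81.9 to 196 in WT and 1.35 to 1.57 in HDAC4&5. Myod1 and Myog, the regulators that drive myogenic differentiation, were not well above background on any HDAC4&5 array. Of the slow fibre markers 8 of 9 fell, while the slow myosin Myh7 rose by 1.445, and all 3 fast fibre markers tested fell. The summed level of the 3 fibroblast markers was 4.88 to 5.76 in WT and 21.6 to 23.3 in HDAC4&5. Of these 3, Col1a1 and Pdgfra rose by 3.34 and 2.18, and Dcn fell by 1.32. Their part in the complex I differences was not tested. The mouse Hdac4 probe differed by -0.05 (SE 0.045, adjusted p = 0.347) and the mouse Hdac5 probe by 1.42 (SE 0.269, adjusted p = 0.000389), but the plasmids carried the human genes, so these probes do not check the labels.

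Among the nuclear core subunits of the matrix arm, 3 fell and 1 rose. Ndufs8, which holds a pair of iron-sulfur clusters near the ubiquinone site, had a lowest, median and highest WT level of 2.88, 2.91 and 3.07 and an HDAC4&5 level of 2.39, 2.45 and 2.55. Every HDAC4&5 array was below every WT array, and the difference was -0.48 (SE 0.049, adjusted p = 1.30e-06, 1.40-fold lower). Ndufs3, another subunit of the module that reduces ubiquinone, ranged from 4.36 to 4.74 around a median of 4.65 in WT and from 4.12 to 4.29 around a median of 4.21 in HDAC4&5, again without overlap. It fell by 0.40 (SE 0.070, adjusted p = 0.000222).

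Ndufv2, an iron-sulfur subunit of the module that oxidises NADH, ranged from 2.84 to 3.10 (median 3.00) in WT and from 2.63 to 2.85 (median 2.74) in HDAC4&5. The ranges overlapped narrowly, and the difference was -0.24 (SE 0.056, adjusted p = 0.00215). Its partner Ndufv1, which binds NADH and the flavin, differed by 0.01 (95% interval -0.24 to 0.26, adjusted p = 0.935). Ndufs7, at the ubiquinone site, was also not called (-0.02, interval -0.30 to 0.27). Its difference was -0.32 with the deposited matrix and -0.144 without saturated spots, neither called, and -0.23 (adjusted p = 0.00176), a called fall, with quantile normalisation and saturated spots left out. Ndufs1, the largest subunit of the NADH-oxidising module, was called higher (0.40, SE 0.116, adjusted p = 0.0357), but outlier spots left only 3 WT values (5.04, 5.10 and 5.12) and 1 HDAC4&5 value (5.48). With the outlier spots kept its difference was 0.35, and blocking on the replicate number ended its call (adjusted p = 0.13).

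Of the accessory subunits of the matrix arm, Ndufv3 fell and Ndufs4 and Ndufa9 rose, and 6 were not called. Ndufv3, a small subunit attached to the NADH-oxidising module, had WT levels of 2.86 to 2.98 (median 2.88) and HDAC4&5 levels of 2.28 to 2.51 (median 2.36). All HDAC4&5 arrays were lower, with a difference of -0.52 (SE 0.049, adjusted p = 5.61e-07, 1.44-fold lower), and the other Ndufv3 probes gave -0.87 and -0.77.

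Ndufs4, whose loss in mice causes a fatal Leigh-like brain disease, ranged from 4.16 to 4.22 (median 4.17) in WT and from 4.28 to 4.46 (median 4.40) in HDAC4&5. The groups did not overlap, though the rise was small at 0.20 (SE 0.041, adjusted p = 0.000681) and was not called with normexp or the deposited matrix. Ndufa9, which sits at the joint of the arms, differed by 0.27 (SE 0.105, adjusted p = 0.0373), and its WT levels of 5.21 to 5.83 included a saturated spot on WT 3 at 5.21. With saturated spots left out the Ndufa9 difference was 0.18 (adjusted p = 0.0504).

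The accessory subunits of the membrane arm divided into 7 that fell, 3 that rose and 9 that were not called. Ndufc2, a subunit of this arm, had WT levels of 5.28 to 5.72 (median 5.57) and HDAC4&5 levels of 4.60 to 4.90 (median 4.71, 5 arrays). The gap between the groups exceeded the range within HDAC4&5, and the difference was -0.80 (SE 0.087, adjusted p = 4.92e-06). Ndufa11, a subunit resembling a protein translocase component, had WT levels of 1.91 to 2.07 (median 2.02) and HDAC4&5 levels of 1.28 to 1.46 (median 1.41). It fell by 0.61 (SE 0.046, adjusted p = 6.42e-08), and its second probe also fell by 0.61.

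Ndufb5, of the distal membrane arm, ranged from 2.21 to 2.41 (median 2.38) in WT and from 2.04 to 2.12 (median 2.09) in HDAC4&5. These ranges did not overlap, with a difference of -0.27 (SE 0.044, adjusted p = 0.00013). The other falls were of Ndufb4 (-0.34), Ndufa8 (-0.25), Ndufb2 (-0.25) and Ndufa3 (-0.18), with adjusted p from 0.00124 to 0.0284. Ndufa8 faces the intermembrane space, and its WT levels (4.83 to 5.16) overlapped its HDAC4&5 levels (4.77 to 4.87). Ndufc1 (-0.21) and Ndufb6 (-0.13) were not called, but with the slide as a block both were lower (adjusted p = 0.0354 and 0.0497), as they were with the deposited matrix. Ndufc1 was also called lower with the replicate block (adjusted p = 0.0231), and Ndufb6 with normexp. A second Ndufc1 probe, detected on all 19 arrays, read 3.89 ± 0.04 in WT and 3.43 ± 0.02 in HDAC4&5 (SD), a difference of -0.46. Another Ndufc1 probe, detected on 17 arrays, gave -0.16.

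Ndufa1, a small membrane subunit encoded on the X chromosome, ranged from 5.18 to 5.98 (median 5.82) in WT and from 6.04 to 6.27 (median 6.20, 5 arrays) in HDAC4&5. It rose by 0.43 (SE 0.125, adjusted p = 0.00829), its second probe differed by 0.29, and the rise was not called with normexp or the deposited matrix. The other rises were of Ndufa10 and Ndufb3, both by 0.21 (adjusted p = 0.0168 and 0.00947), and Ndufb3 levels of 4.75 to 5.04 in WT overlapped those of 5.01 to 5.27 in HDAC4&5. Ndufb8 had a saturated main probe with a difference of 0.31 that was not called, while its second probe, never saturated, read -0.89 ± 0.06 in WT and -0.16 ± 0.12 in HDAC4&5 (SD, n = 6 each).

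The assembly factors Ndufaf3 and Ndufaf4, which bind each other and act on the same ubiquinone-reducing module, moved in opposite directions on the probes used, although the rise of Ndufaf4 was not called with the deposited matrix. Ndufaf3 ranged from 0.73 to 1.05 (median 0.85) in WT and from -0.27 to 0.13 (median -0.01) in HDAC4&5. All HDAC4&5 arrays lay below all WT arrays, and the difference was -0.93 (SE 0.082, adjusted p = 3.41e-07). Ndufaf4 ranged from 3.07 to 3.23 (median 3.20, 5 arrays) in WT and read 3.54, 3.55 and 3.74 on the 3 HDAC4&5 arrays whose spots were not outliers.

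The Ndufaf4 groups did not overlap, and the difference was 0.44 (SE 0.074, adjusted p = 0.000636), but its probes disagreed. A second probe, detected on all 19 arrays, gave 0.29, and another, detected on 12, gave -1.43. Ndufaf1, which acts on the membrane arm, ranged from 2.71 to 2.95 (median 2.79) in WT and from 2.43 to 2.71 (median 2.48) in HDAC4&5. The ranges overlapped narrowly, and Ndufaf1 fell by 0.28 (SE 0.068, adjusted p = 0.00264). Ndufaf2, a late-acting factor, differed by 0.04 (interval -0.06 to 0.15).

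Ndufab1, the acyl carrier protein, rose by 0.27 (SE 0.109, adjusted p = 0.041), with overlapping ranges of 3.65 to 4.07 in WT and 3.87 to 4.47 in HDAC4&5, while its second probe differed by -0.01. Ndufa4 differed by -0.05 (interval -0.28 to 0.18). Leaving out saturated spots made 4 further genes lower, Ndufa12 (-0.33), Ndufb10 (-0.27), Ndufa7 (-0.17) and Ndufa4 (-0.14), each with a saturated spot on WT 3. The other probes of Ndufa12 gave -0.42 and -0.31 and that of Ndufa7 gave -0.22, none of them saturated. Some calls turned on 1 array. Ndufa3 lost its call without WT 1, 2 or 6 or HDAC4&5 1, 3 or 4, Ndufa9 without WT 2, 3 or 4 or HDAC4&5 1, 2, 5 or 6, Ndufab1 without WT 1, 2, 5 or 6 or HDAC4&5 3, 4 or 6, and Ndufs1 without WT 1, 2 or 3. Over all omissions the differences were -0.23 to -0.13 for Ndufa3, 0.18 to 0.31 for Ndufa9, 0.20 to 0.33 for Ndufab1 and 0.38 to 0.42 for Ndufs1.

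**Figure D3:**
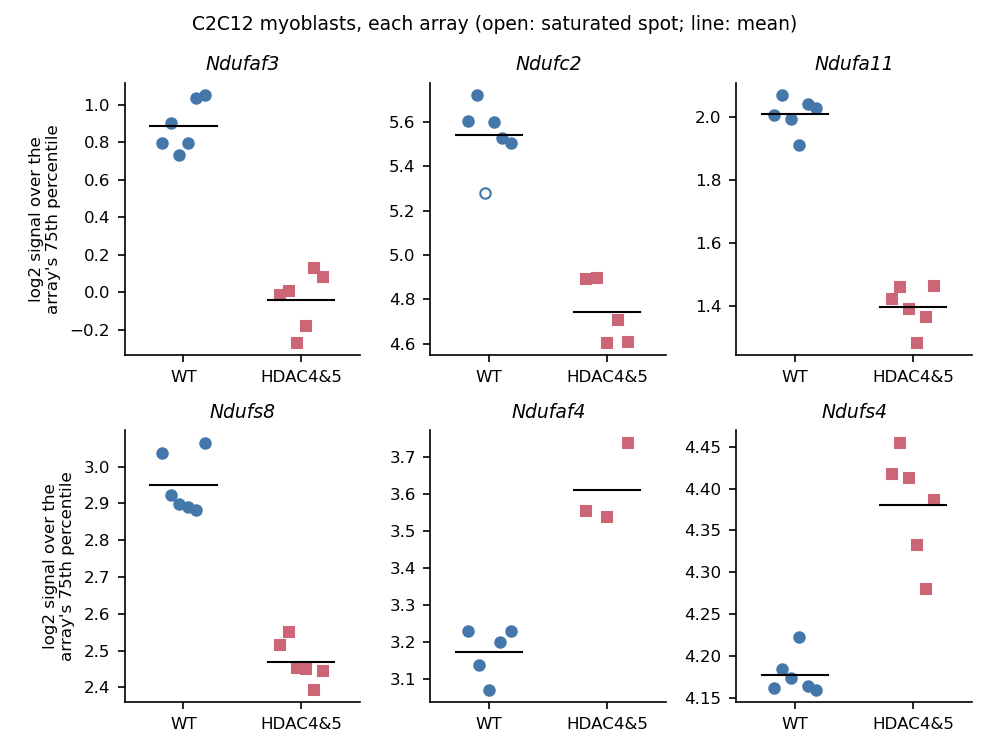
Log2 level over the 75th percentile of the array (vertical axis) on each C2C12 array for Ndufaf3, Ndufc2, Ndufa11, Ndufs8, Ndufaf4 and Ndufs4, with WT beside HDAC4&5 and bars at the group means. The HDAC4&5 points lie below all WT points for the first 4 genes and above them for Ndufaf4 and Ndufs4.

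The sequence before the start of the genes with the largest changes is shown because motif letters were searched there. Windows from 250 bases before to 50 after the annotated start (RefSeq, GRCm38.p6) were held for 37 of the 41 genes. The 120 bases before the start, 5′ to 3′ on the gene's strand, are those of Ndufaf3 (chr9:108567437-108567556, minus strand), Ndufc2 (chr7:97399883-97400002, plus strand), Ndufa11 (chr17:56717642-56717761, plus strand) and Ndufaf4 (chr4:24897963-24898082, plus strand). Capitals mark the letters of the nuclear respiratory factor 1 (NRF1) motif, which read on both strands overlap by 6 bases.

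Ndufaf3: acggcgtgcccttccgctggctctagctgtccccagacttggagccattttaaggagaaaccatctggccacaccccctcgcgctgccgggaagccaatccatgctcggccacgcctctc

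Ndufc2: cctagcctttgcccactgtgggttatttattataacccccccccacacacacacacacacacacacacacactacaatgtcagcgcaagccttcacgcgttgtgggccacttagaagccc

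Ndufa11: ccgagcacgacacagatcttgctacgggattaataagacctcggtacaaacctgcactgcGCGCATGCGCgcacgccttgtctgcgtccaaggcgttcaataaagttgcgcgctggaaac

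Ndufaf4: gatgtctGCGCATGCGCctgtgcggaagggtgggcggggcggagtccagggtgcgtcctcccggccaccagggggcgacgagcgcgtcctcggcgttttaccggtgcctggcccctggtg

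The same NRF1 letters stood before Ndufa11, which fell, and Ndufaf4, whose rise was not called with the deposited matrix and whose probes disagreed. Their part in the differences was not tested. Searched on both strands, the NRF1 letters GCATGCGC were in 4 of the 37 windows (10.8%, against 2.71% of all 32851 windows), in 2 of 13 genes that fell and 1 of 7 that rose. The GABP letters CCGGAAGT were in 1 window (2.7% against 3.89%) and the estrogen-related receptor letters AAGGTCA in 3 (8.11% against 4.72%). The MEF2 motif, bound by the factors that class IIa histone deacetylases repress, was in 0 of 37 windows against 1.86% of all. The YY1 letters AAGATGGC were in 7 (18.9% against 2.75%), always on the gene's strand and starting 23 to 39 bases into the gene. Among all windows of minus-strand genes, the letters after the start were on the gene's strand in 143 and on the other strand in 47. The matches of the 7 complex I genes are shown in capitals with 14 bases before and 4 after.

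Ndufs7 (chr10:80249459-80249484, plus strand): tgaaggccgaggccAAGATGGCggcg

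Ndufa9 (chr6:126849104-126849129, minus strand): aggcattgtgggagAAGATGGCggcc

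Ndufs4 (chr13:114388048-114388073, minus strand): cgtttgcctacaggAAGATGGCggcg

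Ndufs6 (chr13:73328438-73328463, minus strand): caagggtcaccggcAAGATGGCggcg

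Ndufa3 (chr7:3617381-3617406, plus strand): tcgccgccaagaacAAGATGGCcggg

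Ndufb8 (chr19:44555393-44555418, minus strand): ccgcggagaaggtgAAGATGGCtgcc

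Ndufc1 (chr3:51408922-51408947, minus strand): ggagcctgcggaacAAGATGGCgccg

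Of these 7 genes, Ndufs4 and Ndufa9 rose, Ndufa3 fell and 4 were not called. A match of letters is a description of the window and not of binding.

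Related gene lists were compared in the same C2C12 lines. Among 10 other complex I assembly factors, 2 rose and 4 fell, led by Dmac2 (-0.74), an assembly factor of the distal membrane arm, and Tmem186 (0.50), with a median of -0.19. Of the 5 complex I genes listed under other names, Ndufaf6 rose by 1.03 and Ndufaf7 fell by 0.37. Of complex II, 1 rose and 2 fell of 4 (median -0.20), of complex III 2 rose and none fell of 9 (0.18), of complex IV 2 rose and 5 fell of 15 (0.13), and of complex V none rose and 5 fell of 19 (0.12). With saturated spots left out, complex III had 2 higher and 2 lower of 7 (median -0.12), complex IV 2 higher and 5 lower of 11 (-0.04) and complex V 1 higher and 8 lower of 15 (-0.23), while complex II had the same counts and median. With the deposited matrix the medians of complexes II to V were -0.35, -0.22, -0.28 and -0.39. The falls of complex IV included the muscle forms Cox7a1 (-3.23) and Cox8b, which was not well above background on any HDAC4&5 array. Among 12 regulators of mitochondrial biogenesis 3 rose and 4 fell, and the coactivators Ppargc1a (1.41) and Ppargc1b (-1.24) moved in opposite directions.

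To ask whether complex I transcripts differed in the muscle of obese, diabetic mice, db soleus was compared with Con soleus. None of the 41 genes was called, at the adjusted threshold or at an unadjusted p under 0.05 (limma), nor with the methods' t-test, while 1 of 13035 genes tested passed the adjusted threshold (0.00767%) and 6.31% the unadjusted one. With the slide as a block these shares were 0.307% and 17.1%, and again none of the 41 genes was among them. The differences were below 0 for 32 genes and above 0 for 9, with a median of -0.27 against -0.02 for all genes. The median half-width of the 95% intervals was 0.903, which exceeded the size of 40 of the 41 C2C12 differences. With the slide as a block the median half-width was 0.571, and only Ndufaf3, Ndufc2 and Ndufa11 had larger C2C12 differences.

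This median varied between settings. It was -0.12 over 36 genes with saturated spots left out, -0.20 with the slide as a block and -0.17 on the first soleus slide alone, where 29 genes were below 0 and 11 above. Over the 15 genes tested in the deposited matrix, whose soleus columns were taken by name because 4 of 7 matched no scanner file used here, it was 0.19, where the median of all genes was 0.22. In whole muscle, fewer cells of a type and less RNA per cell cannot be told apart. The summed level of 5 adipocyte markers was 222 to 437 in Con and 167 to 306 in db, although 3 of the 5 differences were above 0 (median 0.53) and none was called. That of 5 fast fibre markers was 587 to 2078 in Con and 406 to 1222 in db. Of these 5, Myh2, Tnni2 and Tnnt3 were saturated on every soleus array and Myh1 on every Con array. The endothelial sum was 6.02 to 10.3 in Con and 2.80 to 6.12 in db. Other sums leaned the other way, with 3.32 to 9.69 in Con and 5.02 to 12.3 in db for macrophage markers. For myogenic markers they were 67.7 to 129 and 104 to 134. The ranges of Con and db overlapped for each of these lists. Their part in the complex I values was not tested.

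The largest soleus differences rested on few arrays. Ndufb5 read 5.03, 5.21 and 6.53 in Con 1 to 3 and -1.19, 4.67 and 6.35 in db 1 to 3, the db 4 spot being an outlier. Its difference was -2.31 (interval -6.52 to 1.90), and without db 1 it was -0.08. Ndufaf2 read 3.46, 4.03 and 3.03 in Con and -1.29, 4.05, 2.64 and 2.50 in db, a difference of -1.53 (interval -4.09 to 1.03) that was -0.44 without db 1.

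Ndufs8 read 4.12 and 4.22 in Con 1 and 2 and 4.01, 4.56 and 6.48 in db 1 to 3. The high value of db 3 lay on the second slide, where Con had no valid Ndufs8 spot, and the difference of 0.84 (interval -1.02 to 2.70) became 0.11 with the slide as a block. Ndufa4 (-0.82) and Ndufa9 (-0.79) were saturated on the second slide, and without saturated spots their differences were -0.37 and -0.44.

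**Figure D4:**
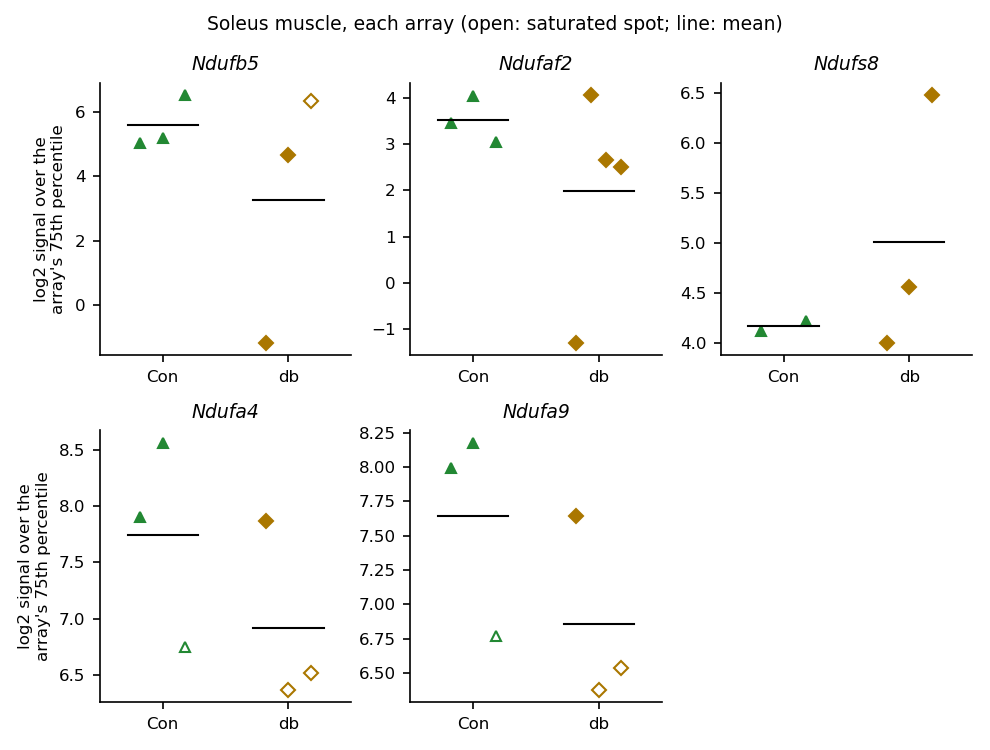
Log2 level over the 75th percentile of the array (vertical axis) on each soleus array for Ndufb5, Ndufaf2, Ndufs8, Ndufa4 and Ndufa9, with open symbols for saturated spots. The low points of Ndufb5 and Ndufaf2, at -1.19 and -1.29, are both db 1.

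No other respiratory list was called in soleus. Complex III differences were below 0 for 9 of 9 genes (median -0.43), and the medians were -0.45 for complex IV, -0.47 for complex V and 0.11 for complex II, with 0 genes called in each. Saturated spots were kept in these values, and all 9 complex III genes had saturated spots in both groups. Uqcrh, for example, was saturated on 2 Con and 4 db arrays. The part of saturation and slide in these signs and medians was not tested.

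Control soleus was set against control C2C12 myoblasts to describe where these genes stand in mature oxidative muscle. Of the 41 genes, 39 were higher in soleus and none was lower (limma, adjusted p under 0.05), where 75.2% of 15058 genes tested were called, 37.3% as higher and 37.9% as lower. The median difference was 1.81 against -0.02 for all genes, and the groups did not overlap for 37 genes, all higher, as for 35.1% of all genes. The 39 include Ndufa13, Ndufb8, Ndufb9 and Ndufs5, saturated on every array of both groups, and the 37 include Ndufb8 and Ndufs5. For these genes both groups read the scanner's ceiling, so the direction cannot be read. The cells and the muscles lay on different slides, so slide and tissue cannot be told apart.

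Ndufv2, the iron-sulfur subunit of the NADH-oxidising module, showed the largest difference, from WT levels of 2.84 to 3.10 to soleus levels of 7.03, 7.11 and 6.88, a rise of 4.02 (SE 0.121, adjusted p = 8.74e-10, 16.3-fold). Ndufs4 read 7.76, 8.59 and 7.22 in soleus, 3.68 above WT (12.8-fold). Ndufb5 (3.24, 9.42-fold), Ndufv3 (3.20, 9.17-fold) and Ndufa3 (3.05, 8.28-fold) followed. Ndufab1 (2.81), Ndufs3 (2.49) and Ndufb3 (2.35) completed the 8 largest. Of these 8, all but Ndufb5 and Ndufa3 were saturated on Con 3, where the reading can be too low, so the order is not firm. With quantile normalisation Ndufs4 was 2.61 above WT, below Ndufb5 (2.91) and Ndufv3 (2.77).

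Other probes did not always show this. The second probes of Ndufab1, Ndufa3, Ndufb8 and Ndufb2 differed by -0.05, -0.69, -0.04 and 0.17. The other probes of Ndufa12 differed by 0.03 and 0.36, and those of Ndufaf4 by 0.095 and 0.32. Other probes of Ndufs6, Ndufv3, Ndufa1, Ndufa11, Ndufa8 and Ndufc1 also read higher in soleus. The genes not called were Ndufa7 (0.49, interval -0.20 to 1.18) and the assembly factor Ndufaf2 (0.03, interval -0.40 to 0.47). For Ndufa13, Ndufb8, Ndufb9 and Ndufs5, saturated on every array of both groups, no fold is given, and 35 of the other 37 genes were higher, with a median of 1.85.

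The size of the shift depended on the scaling, with a median of 0.69 under quantile normalisation, where 28 genes were higher and the median of all genes was -0.27. In the deposited matrix, where 4 of the 7 soleus columns matched no scanner file used here, 16 of 18 genes were higher and 1 was lower, and 16 genes were higher under all 4 scalings. The complexes II, III, IV and V were higher in 4 of 4, 9 of 9, 13 of 15 and 18 of 19 genes. Cox7c of complex IV was lower (-1.505). The counts include Uqcrq, Cox4i1, Atp5f1b and Atp5f1c, saturated on every WT and every Con array. For these genes the direction cannot be read. Soleus was whole tissue, and the summed level of the adipocyte markers, for example, was 0.0354 to 0.102 in WT myoblasts and 222 to 437 in Con soleus, and their part in the difference was not tested.

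**Figure D5:**
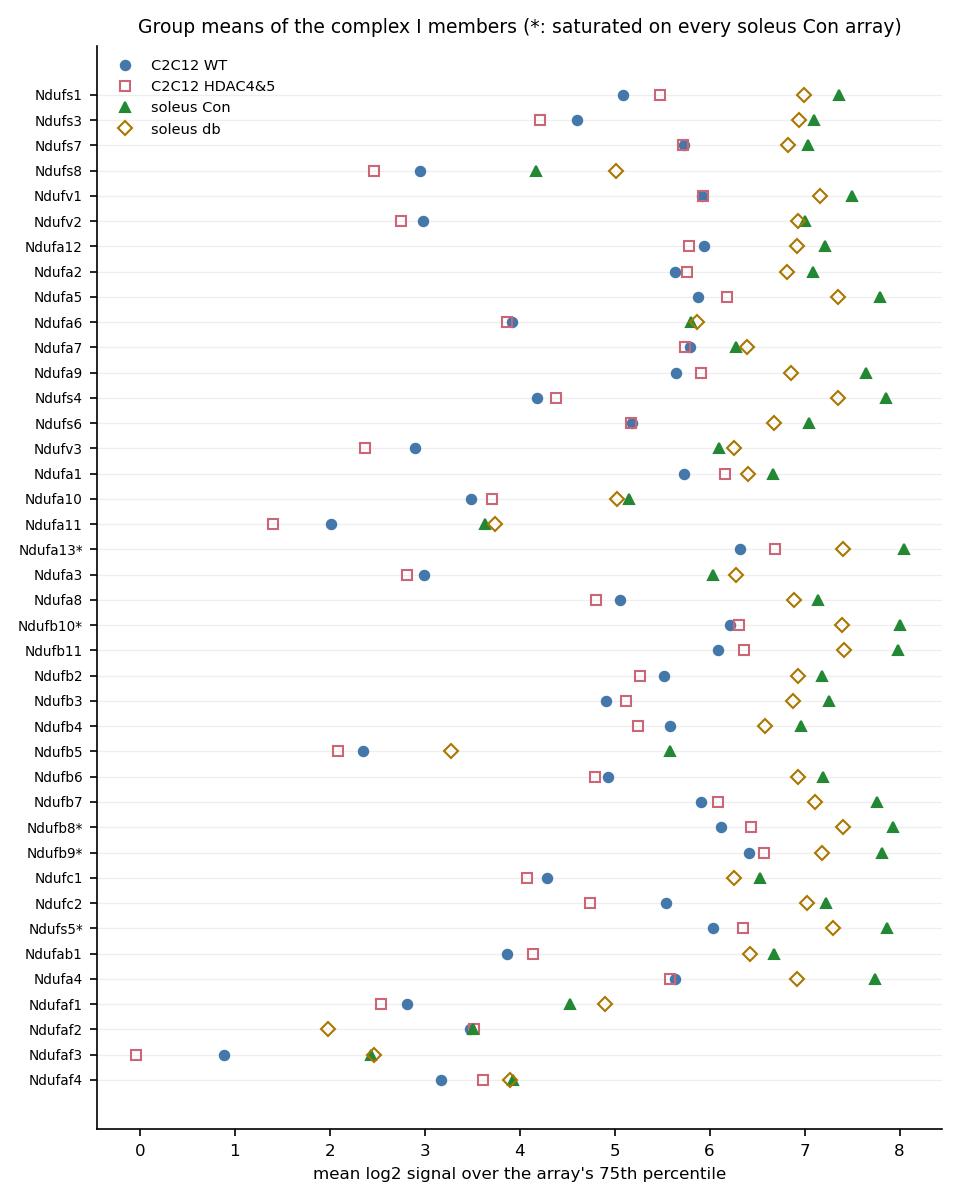
Mean log2 level over the 75th percentile of the array (horizontal axis) of 40 of the 41 genes in the 4 groups, with an asterisk for genes saturated on every soleus Con array. Within each line the soleus means lie to the right of the C2C12 means, except for Ndufaf2, and lines are not comparable with each other because each is a different probe.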

How the data were processed

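RNA (100 ng) from 12 C2C12 and 7 soleus samples was hybridised to 1-colour Agilent arrays, and the authors deposited the intensity of every spot from Agilent Feature Extraction 9.5.1.1, as the submitters' processing notes name it. The deposited matrix holds the authors' normalised values, a linear ratio with column medians near 1, scaled by an unstated constant on each array, and it was used by group. Its 12 C2C12 columns and Con 3 matched their own scanner files, db 1 and db 2 matched the files of other db arrays, and the other 4 soleus columns matched no scanner file used here, so their group rests on the column names. The number of arrays limits the precision.

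From the intensities, log2 of the processed signal was taken and the 75th percentile of its array subtracted. Spots marked as outliers were dropped, saturated spots stayed in. A gene entered a comparison if 1 of its groups had the probe well above background on all arrays. Tests used limma 3.58.1 (R 4.3.3, with version 1.17.8 of data.table) with an adjusted p of 0.05 over all genes tested, and were first tested on simulated data. Named genes were the called members and 7 core subunits in C2C12, the 6 largest differences in soleus, the 8 largest between tissues and the 2 largest called of a list. The values of 1 member are not reported here. Members and lists were chosen with earlier results of these data known.

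Alternatives were quantile normalisation, normexp (offset 50), the deposited matrix, 2 other background filters, the mean of a gene's probes, outlier spots kept, saturated spots left out, slide and replicate blocks, the methods' t-test, and each array left out. Samples of the same replicate number deviated together, with correlations of 0.192 to 0.552 over 6 C2C12 pairs and 0.405 to 0.688 over 3 soleus pairs. So did samples of other numbers on the same slide (0.219 to 0.529 and 0.317 to 0.741). Samples on different slides did not, with correlations of -0.476 to 0.049 in C2C12 and -0.655 to -0.39 in soleus. Samples of the same number always shared a slide. Within a slide, the correlations of the same number and of other numbers covered overlapping ranges. Whether samples of the same number were paired was not tested. Motifs were counted in RefSeq windows with no test. Probe names were updated through accessions for 27198 of 41174 probes.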

Additional observations from a re-analysis of the deposited data

Results flagged for a closer look

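Of 106 groups of 4 to 6 values, 13 had a highest or lowest array further from the rest than Dixon's test allows at the 95% level, where chance gives about 1 in 20, or 5.3. WT 3 was the lowest C2C12 WT array in 11 of these, each with a saturated spot there. Its level was 5.08 for Ndufs7 (nearest other array 5.70), 5.39 for Ndufv1 (5.94), 5.24 for Ndufa12 (6.04), 5.18 for Ndufa5 (5.93), 5.21 for Ndufa7 (5.81) and 5.21 for Ndufa9 (5.60). It was 5.18 for Ndufa1 (5.72), 5.30 for Ndufb11 (6.02), 5.10 for Ndufb4 (5.55), 5.18 for Ndufb7 (6.02) and 5.16 for Ndufa4 (5.63). WT 4 was lowest for Ndufa8, at 4.83 against 5.06, and db 3 was highest for Ndufaf1, at 5.37 against 4.80, both without a saturated spot.

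Without WT 3, 6 complex I genes were higher and 16 lower in HDAC4&5, against 8 and 13 with it. Leaving out every saturated spot gave 7 and 17 of 37.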

How the results depend on the processing

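In C2C12 the count of called genes was 14 to 24 over all alternatives and 18 to 22 with each array left out, against 21, and the methods' t-test with the same adjustment called 19. The median difference, -0.01, was -0.31 with the deposited matrix and -0.09 to 0.03 with each array left out. Of the single genes' values, 522 kept direction and side of the threshold, 59 lost the call, 15 changed sign, and 1, Ndufs7 (-0.23, quantile normalisation without saturated spots), gained it in the same direction. Of those that changed sign, Ndufv1 with quantile normalisation was called lower (adjusted p = 0.0312). Ndufv1 was -0.26 with quantile normalisation, -0.12 with normexp, -0.27 with the deposited matrix, -0.094 without saturated spots and -0.19 without them under quantile normalisation, an alternative chosen after seeing the data, as were the settings on the first soleus slide. The mean of all probes, taken on each array over the probes with a valid spot there and so over unequal probes between arrays, gave 0.41 for Ndufa3 and -0.63 for Ndufaf4. With each array left out Ndufv1 was -0.094 to 0.067 and Ndufs7 was -0.144 to 0.033. With the replicate block, 7 genes were higher and 14 lower (21 called), Ndufs1 lost its call and soleus had 0. The tissues share no numbers that pair them. The cause of these changes was not tested.

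In soleus the count was 0 throughout. The median, -0.27, was 0.19 over the 15 genes of the deposited matrix, and -0.40 to -0.03 with each array left out. Between control soleus and WT C2C12, 39 genes were called, 38 to 40 with each array left out, and 17 of 18 with the deposited matrix. The median, 1.81, was 0.69 with quantile normalisation, 2.17 without Con 3 and 1.57 to 2.17 over all arrays left out. Saturation limits the bright genes, and 3 or 4 muscles per group limit the soleus comparison.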
